A study of Mus musculus with 10 samples.

Results

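The Rbfox3 locus of mouse chromosome 11 was examined in chromatin immunoprecipitation sequencing of HEB. The gene body (Gene ID 52897, protein-coding) runs from 118489760 to 118911597 of chromosome 11 (mm10) and is 421.8 kb long. All HEB summits inside it or within 100 kb of either end were taken. These were 52 of the 1489 summits after Id4 knockdown (siID4) and 11 of the 560 summits with a non-targeting siRNA (siNT). Inside the gene lay 35 siID4 and 8 siNT summits. The locus was chosen by its number of summits in these lists, so its counts and densities are a description and no test was made of them.

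The cells were Comma-Dβ, a mouse mammary epithelial line, all at passage 28. Per the labels, 3 HEB libraries came from cells given an Id4 SMARTpool siRNA and 3 from cells given an ON-TARGETplus non-targeting pool, each at 20 nM with harvest 48 h after transfection. Another 4 input libraries, labelled with no siRNA and no antibody, serve both arms. The design is thus a transient knockdown by siRNA pool in 1 cell line. The authors deposited 1 list of summits for each siRNA, so no value below has an error between replicates, and the depth of the libraries is unknown. Intervals are exact 95% intervals that cover counting error only. The files hold no expression values, so neither the epithelial identity of the cells, nor the loss of Id4, nor the transcription of Rbfox3 was measured.

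HEB, the product of Tcf12, is an E protein, a helix-loop-helix transcription factor that binds DNA as a dimer at E-boxes, the motif CANNTG. ID4 belongs to the inhibitor of differentiation proteins, which pair with E proteins but lack the basic region that contacts DNA, and the pairs they form do not bind E-boxes. Rbfox3 encodes NeuN, an RNA-binding protein of the RBFOX family that regulates alternative splicing and is widely used as a marker of mature neurons. It is not known as a gene of mammary epithelium.

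Rbfox3 is read from the minus strand, so its 5′ end is the higher coordinate, 118911597. The RefSeq promoter table (GRCm38.p6) lists 1 start for it, at 118761041, which lies 150.6 kb inside the 5′ end of the gene body and 271.3 kb from the 3′ end. The gene table names 25 transcripts, and the starts of the others are not used here. The 250 bases before the listed start, chr11:118761042-118761291 on the minus strand, are shown because an E-box is the class of site that HEB binds and because this start divides the locus into a crowded and a sparse part. Capitals mark matches to CANNTG.
Rbfox3 promoter: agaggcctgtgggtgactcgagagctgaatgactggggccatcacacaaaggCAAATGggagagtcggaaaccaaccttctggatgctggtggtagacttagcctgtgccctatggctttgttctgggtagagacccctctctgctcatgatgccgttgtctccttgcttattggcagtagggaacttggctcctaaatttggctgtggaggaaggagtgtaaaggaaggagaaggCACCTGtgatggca
The window holds 2 matches, CAAATG beginning 198 bases and CACCTG beginning 14 bases before the start. The motif CANNTG reads the same on both strands as a pattern, and 66.2% of the 32851 promoter windows of this length hold at least 1 match and 31.8% hold at least 2. CACCTG, read as CAGGTG on the other strand, occurs in 17.2% of windows, and CAGCTG, which is absent here, in 13.0%. A match in this window is a description of its letters. Neither list had a summit in the window. The nearest siID4 summit lay 6390 bp downstream of the start, at 118754651 with a score of 6.02, and the nearest siNT summit 33416 bp upstream, at 118794457 with a score of 3.53.

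Each summit carries a score, read here as −log10 of the q value from the authors' peak caller, with the lowest scores near 1.30, the value at q = 0.05. Scores depend on the depth of their own list, so they rank or filter summits within it, and an equal score limit need not be equally strict in the other. The 35 siID4 summits in Rbfox3 scored from 1.37 to 10.2 with a median of 4.30. The highest ranked 281 of 1489 and the lowest 1456. The 8 siNT summits scored from 2.25 to 6.61 with a median of 3.38, and ranked between 282 and 495 of 560. All 8 fell below the median of their list. Read as at most 3 counts, 0 of 8 allows a share above the median of up to 37.5%, against 12.2% in the rest of chromosome 11 beyond 110 Mb, where 6 of 49 siNT summits were above it.

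The siID4 summits were crowded toward the 5′ end of the gene. Divided into 10 segments of 42.2 kb from the 5′ end, the first 3 held 8, 6 and 8 siID4 summits, which were 22 of 35 or 62.9%. The remaining 7 segments held 13, and the 4 at the 3′ end held 6 of these. The siNT summits showed the same order with few points: 5 of 8, or 62.5%, lay in the first 3 segments. Upstream of the listed start, 23 siID4 summits gave a density of 0.153 per kb (95% interval 0.0968 to 0.229), and downstream of it 12 gave 0.0442 per kb (0.0229 to 0.0773). The density upstream was 3.45 times that downstream (1.65 to 7.62). In the siNT list the counts were 5 and 3 and the ratio 3.003 (0.584 to 19.3), an interval that includes equal densities. These are contrasts seen within the counts that led to the choice of the locus.

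**Figure D1:**
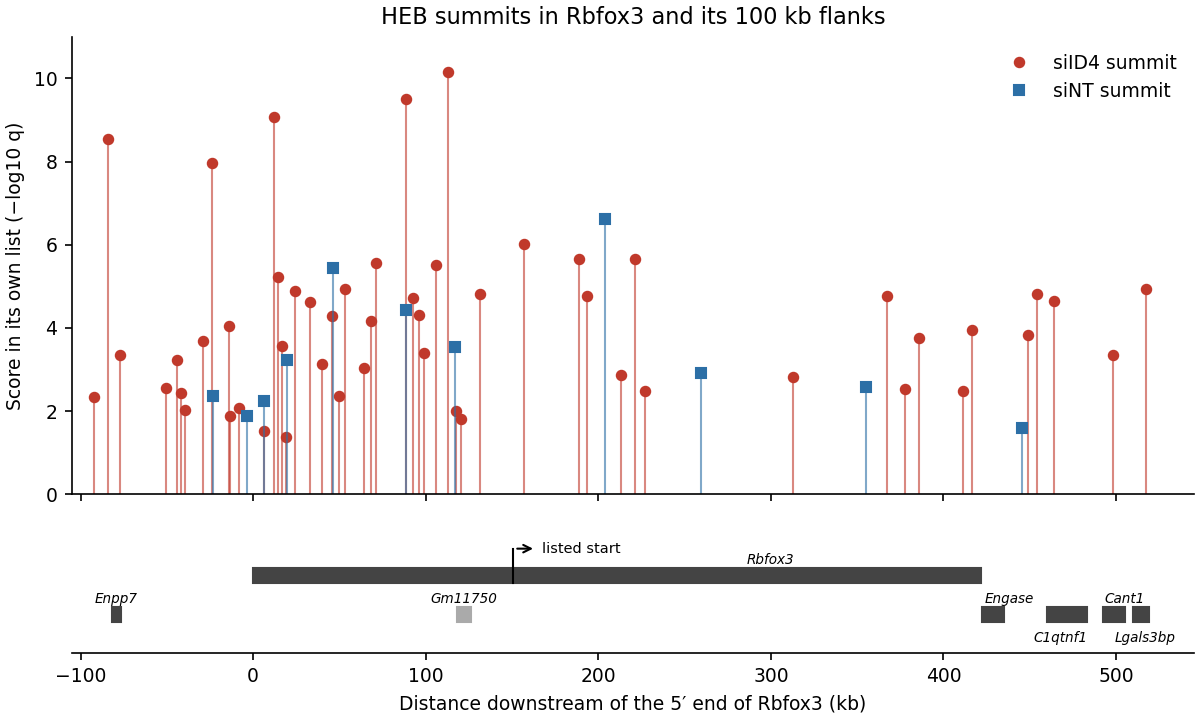
Score of each HEB summit in its own list (−log10 q) against its distance downstream of the 5′ end of Rbfox3 in kb, for the siID4 list (circles) and the siNT list (squares), with protein-coding genes, the lncRNA Gm11750 and the listed start drawn to scale below. Summits are closest together from the upstream flank to the listed start at 150.6 kb. The heights of circles and squares come from separate lists and are not to be compared.

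The summits with the highest siID4 scores in the gene all lay in this 5′ part. The strongest, at 118798699, was 112.9 kb from the 5′ end, scored 10.2 and ranked 281; the nearest siNT summit was 4242 bp away. The summit at 118822956, 88.6 kb from the 5′ end, scored 9.51 and ranked 303. The summit at 118899743, 11.9 kb from the 5′ end, scored 9.07 and ranked 318, with no siNT summit closer than 5751 bp. After these 3 the scores dropped to 6.02 for the summit at 118754651, the highest downstream of the listed start. A total of 9 of the 35 siID4 summits scored at least 5, or 25.7%, against 41.8% of the list. In the rest of the distal part of the chromosome 66 of 298 did, or 22.1%. In siNT 2 of 8 did, or 25%, against 60.2% of the list. In the rest of the distal part 13 of 49 siNT summits did, or 26.5%. A share below that of the whole list was thus also seen outside Rbfox3.

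Neighbouring siID4 summits inside the gene were a median of 5.89 kb apart (95% interval 4.35 to 8.50, 34 gaps), with an interquartile range of 3.84 to 10.9 kb. In the remainder of chromosome 11 beyond 110 Mb the median was 20.1 kb (16.6 to 26.1, 296 gaps). The shortest gap in Rbfox3 was 2.27 kb. Elsewhere in the distal region 21 gaps were under 2000 bp. Upstream of the listed start the median gap was 4.56 kb and the longest 17.6 kb. Downstream the median was 10.3 kb, and the longest stretch of the gene without an siID4 summit was 86.1 kb, between 118598699 and 118684760. An siNT summit at 118652321 (score 2.92) lay within that stretch, 32439 bp from the nearest siID4 summit. The 8 siNT summits were a median of 42.5 kb apart.

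Few siID4 summits of this locus had an siNT summit within 200 bp, as elsewhere in distal chromosome 11. Summits were called shared when the other list held one within 200 bp. Of the 35 siID4 summits in the gene 1 was shared, against 19.5% of the whole siID4 list. Among siID4 summits of chromosome 11 beyond 110 Mb outside Rbfox3 and its flanks, 3.56% were shared. The pair was 118822956 in siID4 (score 9.51) and 118822929 in siNT (score 4.44), 27 bp apart. They had the second highest siID4 score and the third highest siNT score of the gene. For the siNT list this was 1 of 8, against 51.8% of the list and 21.7% in the distal region outside Rbfox3 and its flanks. Among summits outside distal chromosome 11 with scores in the range seen in Rbfox3, 10.5% of siID4 summits (8.57 to 12.8) and 29.3% of siNT summits (22.9 to 36.5) were shared. The Rbfox3 shares, 2.86% (0.0723 to 14.9) and 12.5% (0.316 to 52.7), have intervals that include these values, so a lower share than at other sites of like score was not detectable with these counts.

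Several siNT summits lay just beyond the 200 bp limit. The siNT summit at 118905494 (score 2.25), 6.1 kb from the 5′ end, was 222 bp from an siID4 summit with a score of 1.52. The siNT summit at 118865422 (score 5.45) was 255 bp from an siID4 summit with a score of 4.30. At 118794457 (score 3.53) the distance was 536 bp, and at 118892174 (score 3.23) it was 581 bp. All 4 lie upstream of the listed start, as does the shared pair, so every siNT summit in that part had an siID4 summit within 1000 bp. The 3 siNT summits downstream of the start did not. The highest siNT score of the locus, 6.61 at 118707835, was 9557 bp from the nearest siID4 summit, and the siNT summit at 118556681 (score 2.57) was 12547 bp from one. The siID4 summits are closely spaced in the 5′ part, and the part of their density in these short distances was not tested. Within 500 bp, 3 of the 35 siID4 summits in the gene had an siNT partner, and within 1000 bp 5 did, or 14.3%. With the flanks these were 3 and 6 of 52. The whole siID4 list had 21.4% and 23.0%, and the distal region outside Rbfox3 and its flanks 4.27% and 4.98%. Within 1000 bp, 5 of 8 siNT summits in the gene had an siID4 partner, or 62.5% (24.5 to 91.5). The whole siNT list had 59.3%, and the distal region outside Rbfox3 and its flanks 28.3% (16.0 to 43.5).

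The flanks were populated too. The 100 kb upstream of the gene held 12 siID4 summits, 0.120 per kb (0.0620 to 0.210), against 0.0830 per kb (0.0578 to 0.115) in the gene. The density of the whole gene was 0.691 times that of this flank (0.350 to 1.46). Next to the border, the first 100 kb of the gene held 18 siID4 summits against the 12 of the flank, and the part upstream of the listed start had 0.153 per kb against 0.120. The downstream flank held 5 siID4 summits, 0.05 per kb, and the gene's density was 1.66 times that (0.647 to 5.43). In the siNT list the upstream flank held 2 summits and the downstream flank 1. The siID4 summit of the gene nearest its 5′ end lay 6.3 kb inside that end (score 1.52). The nearest one outside lay 8.4 kb beyond it (score 2.08). At the outer limits, the last siID4 summits counted lay 92.1 kb upstream and 95.4 kb downstream of the gene, and the next ones beyond were 155.6 kb and 119.0 kb away. The first siNT summit beyond the downstream limit, 124.4 kb away at 118365337, scored 26.2, above every siNT summit of the locus.

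Some of the flanking summits lay in neighbouring genes. Enpp7, the gene of an alkaline sphingomyelinase, is 76.6 kb upstream and contained 1 siID4 summit at 118988990 (score 3.35), 809 bp from its listed start. The strongest siID4 summit of the flanks, at 118995644 (score 8.55, rank 339), lay outside annotated genes. The second, at 118935454 (score 7.97), had an siNT summit 560 bp away with a score of 2.35. The lncRNA Gm35710 held 4 of the 12 siID4 summits of the upstream flank, with scores from 2.03 to 3.24. On the other side, Engase, which encodes a cytosolic deglycosylating enzyme, ends 551 bp from Rbfox3 and contained no summit of either list. C1qtnf1, the gene of a secreted C1q and TNF related protein, Cant1, a nucleotidase gene, and Lgals3bp, which encodes a galectin-binding glycoprotein, each contained 1 siID4 summit, with scores of 4.64, 3.35 and 4.93, and no siNT summit. The one in C1qtnf1 also lay in the overlapping lncRNA Gm11747. Within Rbfox3 itself, the lncRNA Gm11750 contained 1 siID4 summit (score 1.82).

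Rbfox3 was then set beside the 10 other genes of chromosome 11 that start beyond 110 Mb and exceed 100 kb. In the siID4 list its density ranked 2 of 11. Ccdc57, a coiled-coil protein gene, was denser, with 16 summits in 106.4 kb or 0.150 per kb (0.0860 to 0.244). Dnah17, an axonemal dynein gene, followed with 6 summits and 0.0550 per kb (0.0202 to 0.120), and Tbcd, a tubulin-folding cofactor gene, with 8 and 0.0484 per kb (0.0209 to 0.0954). The intervals of these 3 genes overlap that of Rbfox3, so the order among the 4 is not fixed by these counts. Sdk2, a cell adhesion gene, had 8 summits and 0.0275 per kb (0.0119 to 0.0542), and Slc39a11, a zinc transporter gene nearly as long as Rbfox3 at 405.4 kb, also had 8 and 0.0197 per kb (0.00852 to 0.0389). Both intervals end below that of Rbfox3, but Rbfox3 was chosen by its count, so this is a description and not a test. Rptor, which encodes a subunit of the mTORC1 kinase complex and is the next in length, had 4 in 296.7 kb. Septin9 had none, with an exact upper limit of 0.0227 per kb.

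The 10 genes together held 54 siID4 summits, 0.0280 per kb (0.0210 to 0.0365), close to the 0.0259 per kb of the whole distal region without Rbfox3. Rbfox3 had 2.97 times the pooled density of these genes (1.88 to 4.62), and 3.98 times without Ccdc57 (2.44 to 6.47). Leaving out Ccdc57 was decided after the data were seen. Rbfox3 was chosen by its count, so these ratios and the siNT ratio below are descriptions and not tests. In the siNT list Rbfox3 ranked 1 of 11, with 0.0190 per kb (0.00819 to 0.0374). The siNT intervals of all 10 genes overlap that of Rbfox3, so this order is not fixed by these counts. Sdk2 was next with 3 summits and 0.0103 per kb (0.00213 to 0.0302), followed by Ccdc57 with 1 summit. The 10 genes held 11 siNT summits, and Rbfox3 had 3.33 times their pooled density (1.16 to 9.08). By the measure used here, summits per kb of gene body in each list, Ccdc57 was closest above Rbfox3 in siID4 and Sdk2 closest below it in siNT, and none of the 10 reached its density in siNT.

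**Figure D2:**
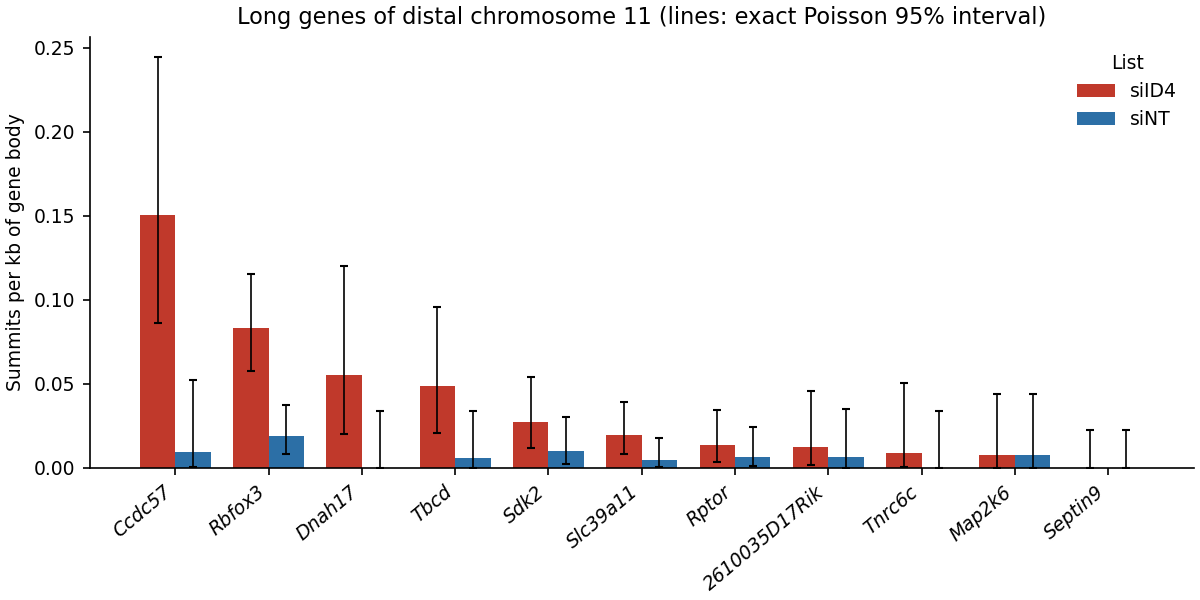
HEB summits per kb of gene body in the siID4 and siNT lists for Rbfox3 and the 10 other genes of distal chromosome 11 longer than 100 kb, with exact Poisson 95% intervals as lines. Rbfox3 is second to Ccdc57 in siID4 and first in siNT, and many of the siNT bars rest on 0 to 3 summits.

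Along the distal region, cut into 119 bins of 100 kb anchored on the 5′ end of Rbfox3, the first 100 kb of the gene was the fullest bin of both lists, with 18 siID4 and 4 siNT summits. The anchor was chosen after the data were seen, and it sets where crowded stretches are cut. The next fullest siNT bins held 3. The median bin held 2 siID4 and 0 siNT summits. The next siID4 bins were the 100 kb just upstream of Rbfox3, with 12, and a bin 1.35 Mb upstream at Bahcc1, a chromatin protein gene, also with 12. A pair of bins at Ccdc57 held 11 and 10. The gene was not alone in its crowding: among windows of its own length slid by 10 kb across the region and not overlapping it, the fullest held 41 siID4 summits, above the 35 of Rbfox3, from 120650001 to 121071838, a stretch with 18 protein-coding genes that include Ccdc57. Of 1066 such overlapping windows 2.72% held at least 35, and the median was 8. For siNT the fullest window held 7, against 8 in Rbfox3.

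**Figure D3:**
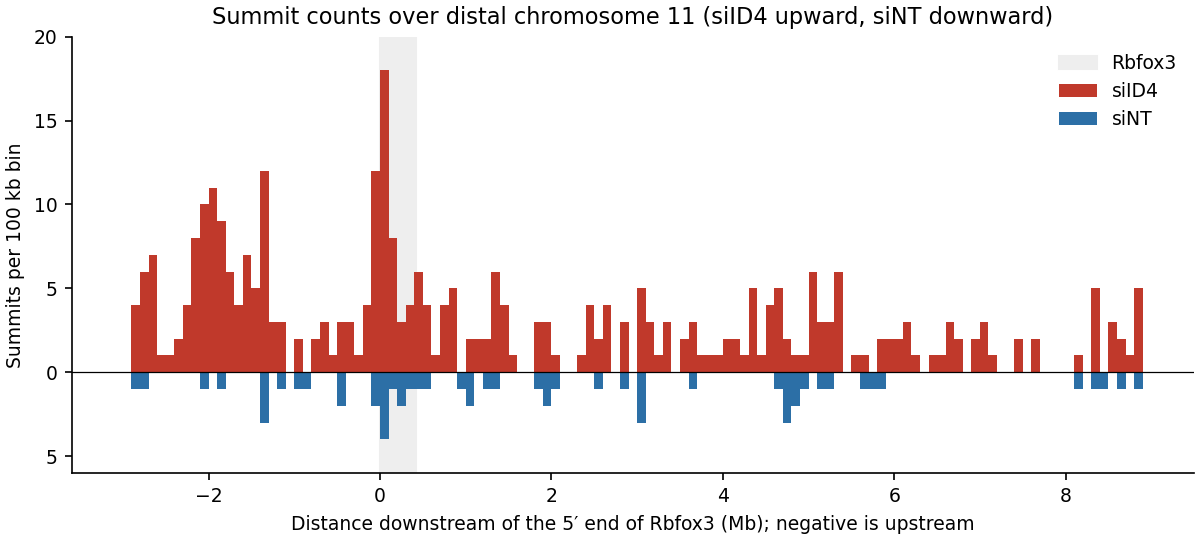
Number of HEB summits in each 100 kb bin of chromosome 11 beyond 110 Mb, siID4 upward and siNT downward, against the distance in Mb downstream of the 5′ end of Rbfox3 (shaded). The fullest bin of both lists is the first 100 kb of Rbfox3, with 18 and 4 summits, and another siID4 maximum lies about 2 Mb upstream, around Ccdc57.

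The comparison of the siRNAs asked whether HEB sites at the locus differ when Id4 is knocked down. Inside Rbfox3 the 35 siID4 summits were 4.38 times the 8 siNT summits (1.99 to 10.9). In the rest of distal chromosome 11 the ratio was 6.08 (4.48 to 8.40; 298 against 49), and outside that region 2.30 (2.07 to 2.56). The interval for Rbfox3 contains both values, so a difference between the gene and its surroundings was not detectable at these counts. The ratio depends on the length of the lists. Among the 560 highest-scoring siID4 summits, as many as the siNT list holds, 6 lay in Rbfox3 against 8 in siNT, a ratio of 0.750 (0.214 to 2.46). In the rest of the distal region that setting gave 45 against 49. The other 29 siID4 summits of the gene scored under 5.63, the lowest score among those 560. Depth and input coverage are not given per list, and their part in the excess was not tested.

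By rank within their own list, siID4 summits in Rbfox3 stood at a median percentile of 49.8 (33.5 to 56.5), where 100 is the highest score. The other siID4 summits of the distal region stood at 36.9 (32.3 to 42.7), those in the 10 comparison genes at 38.4 (26.5 to 52.7), and those outside the region at 54.7 (51.2 to 58.7). The Rbfox3 interval overlaps all of these. In the gene 17 of 35 siID4 summits exceeded the median of the list, against 33.6% of the remaining distal ones. The siNT summits in Rbfox3 stood at 26.2 (11.1 to 49.7), beside 21.9 (12.9 to 32.2) in the rest of the distal region and 9.73 (4.73 to 43.5) in the 10 comparison genes, intervals that overlap that of Rbfox3. Outside the region the median was 54.0 (50 to 58.1), an interval just above that of Rbfox3.

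**Figure D4:**
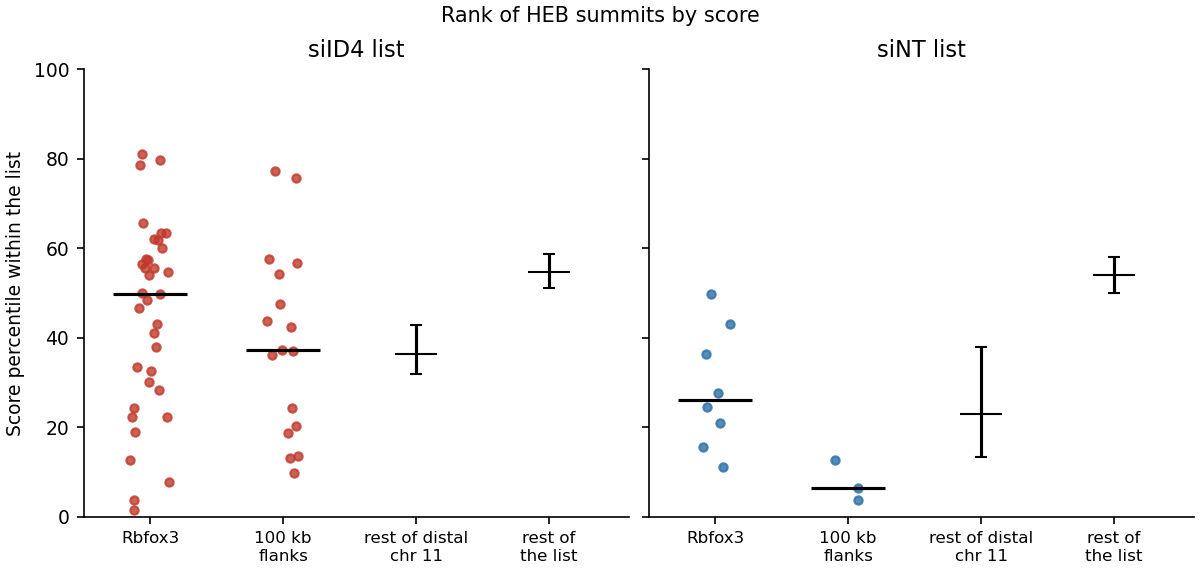
Percentile of each summit's score within its own list for summits in Rbfox3 and in its 100 kb flanks (points, with the median as a line), and the median with its 95% interval for the rest of distal chromosome 11 and for the rest of the list. The siID4 summits in Rbfox3 spread from near 1 to 81 with a median of 49.8, and all 8 siNT summits lie under 50.

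Of the genes of related function listed here, only Rbfox3, which was chosen for its summits, contained one. Rbfox2, the RBFOX gene expressed most widely outside neurons, had no summit within 100 kb in either list; the nearest siID4 summit was 131.4 kb away and the nearest siNT summit 338.3 kb away. Rbfox1, a neuronal and muscle splicing factor gene that spans 1527.7 kb on chromosome 16, also had none, with the nearest siID4 summit 1233 kb away. None of 13 other splicing regulators, among them the Nova, Elavl, Ptbp and Mbnl genes, and none of 15 neuronal markers such as Map2, Tubb3, Snap25 and Dcx contained a summit of either list. Together these were 0 of 30 genes, which allows up to 10.0% when 0 is read as at most 3 counts. Of all 21883 protein-coding genes, 1.96% had an siID4 summit inside and 0.713% an siNT summit. Both shares lie within that limit, so a difference of the 30 genes from all genes was not detectable. Within 100 kb, where 10.1% and 5.16% of genes had one, Ptbp1, a repressor of neuronal exons, was the only one of the 30, with 2 summits of each list 68.5 kb or more from the gene.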

How the data were processed

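The authors deposited 2 lists of 1-bp peak summits, 1 per siRNA, with a score taken, from its column and minimum, to be −log10 of q; neither file names its caller. Build mm10 and SAMtools are named per the submitters' processing notes. The sources used here do not state the aligner, the caller, or whether the libraries of an siRNA were pooled. A peak list reports only positions past the caller's threshold, so an absent summit is not absent binding.

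Summit positions (1-based) were counted over gene bodies of the RefSeq table for GRCm38.p6, the assembly of mm10. The table has no exons, so exon and intron were not told apart; strand and 1 start per promoter entry came from the RefSeq promoter table. The comparison region ran from 110000001 to 121925328. Densities have exact Poisson intervals, shares Clopper-Pearson intervals, ratios exact conditional intervals and medians order-statistic intervals, all at 95%. The limit given for a share of 0 is 3 counts of the total. The tools were Python 3.11.15, pandas 2.3.3 and SciPy 1.17.1. Counting and sharing were tested on simulated summits. Summits are not replicates of a treatment, so no test between the siRNAs was made.

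The locus, gene lists and comparisons were chosen with earlier results of these data known. Named by rule were Rbfox3, protein-coding genes within 100 kb, the 5 comparison genes densest in siID4, the 2 longest, any as dense in siNT, Rbfox1 and Rbfox2, and listed genes with a summit inside; Septin9, Bahcc1, Ptbp1 and the lncRNAs were named after their values were seen. The segments, the division at the listed start, the bins and the sliding windows were also chosen after the data were seen.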

Additional observations from a re-analysis of the deposited data

How the results depend on the processing

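Of 45 values recomputed under other settings, 30 stayed within the main interval or within 1.5 times the main count, 14 moved further and 1 reversed. At a score of at least 5 the counts in Rbfox3 fell to 9 siID4 and 2 siNT summits, the median siID4 gap grew to 24802 bp and 0 summits were shared. Above the median score 17 siID4 and 0 siNT summits were left, and no ratio with an siNT count was computed. The gene with its flanks also held 0 siNT summits above it. That setting's 0 shared was therefore fixed in advance, though it is counted among the 14 that moved. With as many siID4 as siNT summits, a setting added after the data were seen, 6 siID4 summits remained. The ratio to the 8 siNT summits was then 0.750 (0.214 to 2.46), counted as reversed, though the interval includes equal counts. Over the gene with its flanks, where 1 of 52 siID4 summits was shared within 200 bp, partners within 500 bp gave 3 and within 1000 bp 6. The shares of the whole siID4 list at these 3 limits were 19.5%, 21.4% and 23.0%. The siID4 density ratio to long genes was 5.87 with the border of the region moved 5 Mb outward and 40.7 over the whole chromosome 11, and the siNT ratio 42.2 over the whole chromosome; these add genes from sparser parts. Counting summits within 100 kb, 2 listed genes had one in place of 1.

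No paired analysis was possible because each siRNA has 1 list and no values per library; leaving out replicates was not possible either. The depth of the libraries is unknown.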

Other observations

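Across the genome, 350 other protein-coding genes are longer than 400 kb. Of these, 50 contained an siID4 summit and 17 an siNT summit. Among all 21883 protein-coding genes of any length, 1.96% contained an siID4 summit and 0.713% an siNT summit. The part of gene length in these counts was not tested. After the 35 siID4 summits of Rbfox3, the highest count was 8, in Slc39a11 on the same distal part of chromosome 11, followed by 3 in Rims2, a synaptic vesicle release gene on chromosome 15. In the siNT list, after the 8 of Rbfox3, Slc39a11 and Magi2, a scaffold protein gene on chromosome 5, had 2 each. The length limit was set after the data were seen. Rbfox3 is long and lies in the crowded distal part of chromosome 11, and the part of either in its count was not tested.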
